A study of Bos taurus with 12 samples.

Results

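The miR-99, miR-100 and miR-125 miRNAs were followed through the adipogenic differentiation of bovine intramuscular preadipocytes. Members were all names in the miRNA table with the token miR-99a, miR-99b, miR-100, miR-125a or miR-125b, whatever the arm of the hairpin or the species prefix, and each name was tested from 1 row, while shares and ranks count every row of a name. This gave 13 of the 1330 names, all of them above 0 in at least 1 library. The cells, precursors of fat cells, had been isolated from a back muscle (longissimus dorsi) of newborn Qinchuan calves. RNA came from uninduced cells (0 d) and from cells 3, 6 or 9 d into differentiation, and each day had 3 libraries. Induction began at near confluence in medium with serum and antibiotics plus dexamethasone, IBMX (a phosphodiesterase inhibitor) and insulin, and the medium was then changed to insulin as the only inducer before the 3 d samples. The sample labels and the paper differ in the doses of dexamethasone and insulin, and where the labels have poly(A) selection of the long RNA, the paper has removal of rRNA. No uninduced cells of 3, 6 or 9 d were among these samples, so that induction and time in culture cannot be told apart. The replicates were described as biological, and the paper speaks of 1 batch of cells followed over the days without saying whether replicates came from different animals, so that p-values measure only the spread between these samples.

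MicroRNAs guide Argonaute proteins to mRNAs, mostly through pairing of a short seed near their 5′ end, and lower the stability or translation of those mRNAs. In vertebrates a hairpin of the miR-99 and miR-100 group commonly lies in a cluster with a let-7 hairpin and a miR-125 hairpin that are transcribed together. The miR-99 and miR-100 seed is best known for repressing MTOR, the kinase of the growth pathway named for it, and miR-125, the relative of worm lin-4, for repressing LIN28 and several genes of cell death, and these miRNAs are abundant in fibroblasts and other mesenchymal cells.

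The mature sequences are shown because the 5p arms fall into a pair of groups with different seeds. Bases 2 to 8, the seed, are in capitals, and T stands for U as in the deposited table. The first group shares the seed ACCCGTA:
miR-99a-5p: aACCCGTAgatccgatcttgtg
miR-99b: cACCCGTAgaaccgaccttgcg
miR-100: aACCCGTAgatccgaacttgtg
The miR-125 group shares the seed CCCTGAG:
miR-125b: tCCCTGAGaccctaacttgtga
miR-125a: tCCCTGAGaccctttaacctgtg
Counted from the 5′ end and with the base of miR-99a first, miR-100 differed from miR-99a only by T16A, and miR-99b differed from it by A1C, T11A, T16C and T21C. The sequences of miR-125a and miR-125b were identical over their first 13 bases. No name outside the family in the table had either seed.

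The 3p arms are shown because they tell apart hairpins whose 5p arms are alike:
miR-99a-3p: cAAGCTCGcttctatgggtctgt
miR-99b-3p: cAAGCTCGtgtctgtgggtccga
miR-125b-1-3p: aCGGGTTAggctcttgggagct
miR-125b-2-3p: aCAAGTCAggctcttgggacct
miR-125a-3p: aCAGGTGAggttcttgggagc
The 3p arms of miR-99a and miR-99b shared the seed AAGCTCG, and each of the others had a seed of its own. Mature miR-125b comes from 2 hairpins, and its reads carry no mark of which, whereas miR-125b-1-3p and miR-125b-2-3p each belong to 1 of them. Names of the 3p arms other than miR-99a-3p carried the prefix of human, goat or guinea pig, because the authors matched reads to the hairpins of several species. The 2 names with the prefix sha-, called miR-125a by the deposited table, held the miR-125b sequence with 2 further bases.

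The hairpins lay in 3 clusters by the coordinates of the deposited table, for which the paper names the genome ARS-UCD1.2. On the minus strand of chromosome 1, the miR-99a hairpin (chr1:20435338-20435427) and the miR-125b-2 hairpin (chr1:20385501-20385585) lay within 49927 bases, with let-7c between them. On the minus strand of chromosome 15, the miR-100 hairpin (chr15:32818524-32818606) and the miR-125b-1 hairpin (chr15:32763901-32763988) lay within 54706 bases, with a let-7a hairpin between them. On the plus strand of chromosome 18, miR-99b (chr18:57688886-57688965) and miR-125a (chr18:57689557-57689642) lay within 757 bases, with let-7e between them. Each cluster therefore held 1 hairpin of either seed group and 1 let-7 hairpin.

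The deposited raw values are estimated read counts, and the normalized values are those counts times 1 factor per library. Over all rows, raw values summed to 2101912, 2408766 and 1851720 in the 0 d libraries and to 2767072, 3739354 and 3515095 at 3 d. The sums were 3801094, 5636256 and 5020634 at 6 d and 3956356, 3621167 and 4130854 at 9 d. A total of 3 counts, the limit that a count of 0 allows, came to 0.53 to 1.62 parts-per-million (ppm) of a library, and this covers counting error only. The 113 names on more than 1 row had identical values on their rows. Of the values above 0 of names on 2 rows, 46.3% lay midway between whole numbers, against 9.2% for names on 1 row, so that a miRNA with 2 hairpins had its reads divided evenly between its rows. Such values also occurred for miR-99a-5p and miR-100, each on 1 row (raw values of 38944.5 and 75132.5 in 3 d replicate 1). Whether reads were divided between these names, which differ by 1 base, was not tested, so their values may not be separate measurements. The normalized values of miR-125b below are those of each of its 2 rows, and shares count both.

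The 0 d replicate 3 stood apart before any result of the family. It had the lowest total and the highest deposited factor (2.195, against 0.545 to 1.492 in the other libraries). Across miRNAs its mean Pearson r was 0.901 with the other 0 d libraries and 0.879 with the other days, while the other libraries had 0.925 to 0.962 and 0.919 to 0.936. It was the only library with miR-122, the liver miRNA, at 159 ppm. It also held miR-126, the endothelial miRNA, at 31.9 ppm, and blood miRNAs, of which 3 of 5 were detected, at 17.3 ppm. Among the other libraries, 6 d replicate 3 held 84.1 and 79.1 ppm of these, 9 d replicate 2 held 1.66 ppm of blood miRNAs, and the rest held neither. Of 5 epithelial miRNAs, 4 were detected, at 7.08 to 18.3 ppm in all libraries. In mRNA it was ordinary, with a mean r across genes of 0.987 and 0.956. Values with and without this library are given where it matters.

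Markers of other cells were read beside the family. The 4 skeletal muscle miRNAs, miR-1, miR-133a, miR-133b and miR-206, were all detected and together made up 36460, 30020 and 42130 ppm of the 0 d libraries, with miR-206 the most abundant there. They made up 30720 to 32860 ppm of the 3 d libraries, 18290 to 20080 ppm of those of 6 d and 13610 to 17590 ppm of those of 9 d, where every library lay below every 0 d library. Of 8 skeletal muscle mRNAs, 7 were found, PAX7 was not among the row names, and their FPKM (fragments per kilobase of transcript, scaled for depth) summed to a mean of 876 at 0 d and 286, 399 and 314 at 3, 6 and 9 d, with DES the highest. All 10 adipocyte mRNAs were found, and their summed means were 187, 870, 343 and 294 FPKM, with PLIN2 the highest and CEBPA, which drives adipocyte differentiation, at 0.26 FPKM or less. The summed means of the 8 preadipocyte and fibroblast mRNAs were 119590, 171254, 131314 and 219532 FPKM, mostly COL3A1 and DCN. These sums hide opposite courses within the list. Against 0 d, limma called 3 of the 8 up and 3 down on day 3, then 2 each way on day 6 and 1 each way on day 9. Of all mRNA rows tested, 8.06% were up and 15.2% down on day 3. The same shares were 3.39% and 7.97% on day 6, and 3.41% and 7.47% on day 9. DCN was up every time (2.09, 1.66, 2.16), whereas CD34, never over 0.76 FPKM, was down every time. PDGFRB was down on days 3 (-1.38) and 6 (-1.47), and COL1A1 on day 3 only (-1.68). Endothelial mRNAs summed to 2.47 to 3.49 FPKM in the 12 libraries, mostly VWF and TEK, and PECAM1 stayed at or under 0.03. Blood and immune mRNAs summed to 0.66 to 2.99 FPKM, mostly CD14, with PTPRC and HBB at 0 in every library. Their summed means were 0.88, 2.74, 1.57 and 2.48 FPKM over the 4 days, and every later library lay above every 0 d library. By limma CD14 was called higher at 3 d (1.71) and 9 d (1.59) but not at 6 d (0.85). Mean proliferation sums were 40.9, 62.9, 40.2 and 27.8 FPKM over the 4 days. Whether any of these moved the family was not tested, and in bulk samples fewer cells of a type and less RNA per cell cannot be told apart.

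The family made up a large part of all miRNA reads. Its share of the raw values had means of 32.1% ± 4.30, 28.2% ± 1.66, 23.7% ± 0.951 and 30.1% ± 1.99 over 0, 3, 6 and 9 d (SD, n = 3). Those of 0 d held 30.1%, 29.2% and 37.1%, of which the last was replicate 3, and every 6 d library (22.8% to 24.7%) lay below every library of the other days. Wilson 95% intervals were at most 0.0696 percentage points to either side, so that counting error was small beside the spread between replicates. By seed, the 5p arms with the seed ACCCGTA took 10.2% ± 0.230, 10.3% ± 0.308, 11% ± 0.844 and 14.3% ± 0.964 over the 4 days, and those with the seed CCCTGAG took 21.8% ± 4.48, 17.9% ± 1.36, 12.6% ± 0.487 and 15.7% ± 1.15. A difference between the seed groups was not tested.

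**Figure D1:**
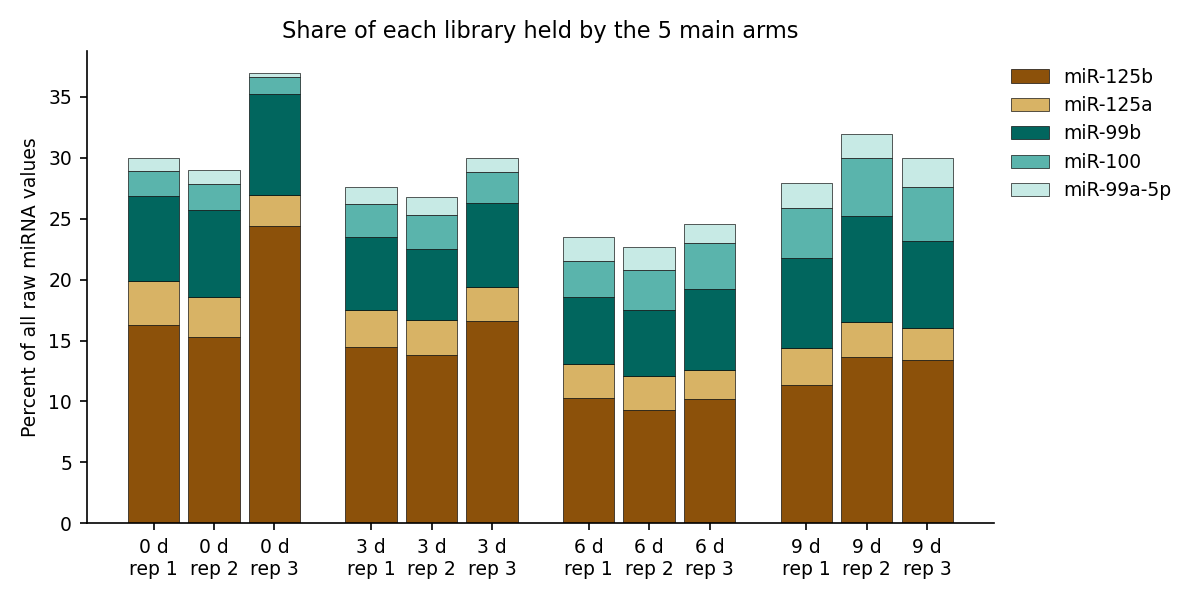
Share of all raw miRNA values held by the 5 main 5p arms in each of the 12 libraries, as stacked bars in percent, with both rows of miR-125b counted. The 0 d replicate 3 bar is the tallest because of miR-125b, the 6 d bars are the lowest, and the band of miR-100 widens from 0 d to 9 d.

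Among the 1330 names ranked by raw values over all rows and the 12 libraries, miR-125b was number 1 and miR-99b number 2 (on 1 row miR-125b had 2795830 counts and stood below miR-99b with 2855150), with miR-100 at 5, miR-125a at 8 and miR-99a-5p at 15. These ranks pool libraries of different totals, so that the deeper libraries of the later days weigh more in them. At 0 d the mean shares were 18.7% for miR-125b, 7.49% for miR-99b, 3.14% for miR-125a, 1.82% for miR-100 and 0.858% for miR-99a-5p. The order was the same at 3 d, where miR-125a (2.89% ± 0.136) and miR-100 (2.67% ± 0.0850) were closest. At 6 d miR-100 (3.34% ± 0.387) stood above miR-125a (2.61% ± 0.214), and at 9 d the shares were 12.8%, 7.74%, 4.39%, 2.85% and 2.17% for miR-125b, miR-99b, miR-100, miR-125a and miR-99a-5p. With both rows of miR-125b counted, on each day every library of a member lay above every library of the next in that order, so that no neighbours overlapped. These levels compare read shares of molecules of similar length, and differences in how well each sequence enters a library were not tested. The plot of shares shows the exchange of places between miR-100 and miR-125a.

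Each day was compared with 0 d by edgeR's quasi-likelihood test over 1081 names, and a change was called at a Benjamini-Hochberg adjusted p under 0.05. Of the 13 members, 12 were tested. The 3 comparisons share the 0 d libraries, and the values of each are given side by side. At 3 d, 4 of 12 members were called, against 9.16% of all names tested; 2 were higher (5.64% of all names) and 2 lower (3.52%), and 1 had an absolute log2 fold change over 1 (6.38%). At 6 d, 5 of 12 were called (15.8%), 3 higher (10.4%) and 2 lower (5.46%), with 3 over 1 (11.3%). At 9 d, 4 of 12 were called (24.5%), 3 higher (14.2%) and 1 lower (10.4%), and all 4 were over 1 (18.3%). The median log2 fold change of the 12 members was -0.13, 0.24 and 0.40 at 3, 6 and 9 d, beside 0.03, 0.25 and 0.00 over all names. These medians moved with the settings: with library totals in place of edgeR's TMM factors, the 9 d medians were 0.02 for the family and -0.20 for all names, with DESeq2, which changes the model as well as the scaling, the 6 d medians were 0.09 and 0.10, and with a minimum sum of 120 in edgeR they were 0.05 and 0.01. At 9 d the family median stood above that of all names with each of these settings, and at 6 d which of them was higher differed between alternatives.

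**Figure D2:**
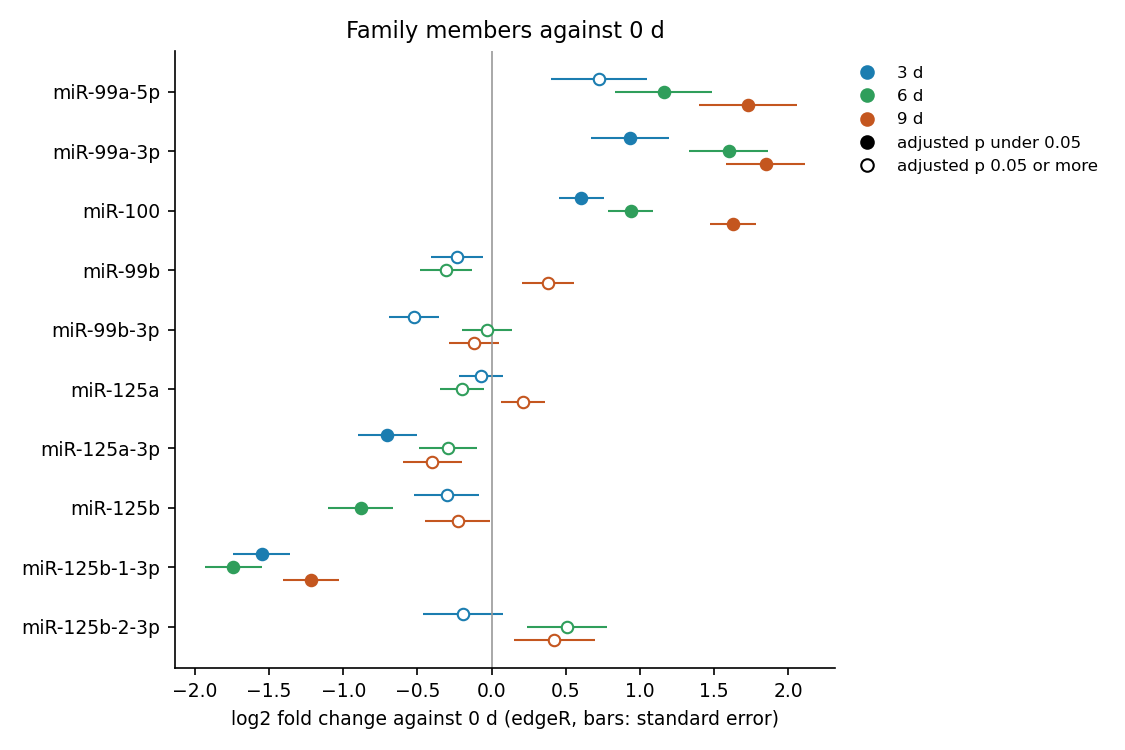
The log2 fold change of 10 members against 0 d from edgeR at 3, 6 and 9 d, with bars of 1 standard error and filled points for an adjusted p under 0.05. The miR-99a arms and miR-100 lie to the right of 0 on all 3 days, miR-125b-1-3p lies furthest to the left, and the points of miR-99b and miR-125a stay near 0.

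The arms of miR-99a and miR-100 rose. For miR-99a-5p, the normalized values were 32986, 36689 and 12189 at 0 d and 44049, 45079 and 36664 at 3 d. They were 61623, 56174 and 48342 at 6 d and 75580, 80159 and 87329 at 9 d. The 0 d replicate 3 was the lowest of all 12, the 3 d libraries overlapped those of 0 d, and all 6 libraries of 6 and 9 d lay above them. By edgeR the log2 fold changes were 0.72 (SE 0.32, adjusted p = 0.208), 1.16 (SE 0.33, adjusted p = 0.0258) and 1.73 (SE 0.33, adjusted p = 0.00166) at 3, 6 and 9 d. Leaving out 0 d replicate 3 gave 0.36, 0.81 (edgeR adjusted p = 0.00125) and 1.34 (adjusted p = 1.42e-05). The 6 d call was lost with library totals (1.03), with only the libraries of 0 and 6 d (1.16), and without 6 d replicate 1 (1.06, edgeR adjusted p = 0.0944) or 6 d replicate 2 (1.15, adjusted p = 0.0686), with adjusted p from 0.00125 to 0.154 over the alternatives, while the 9 d call was kept in all of them.

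Its passenger arm, miR-99a-3p, was far rarer and moved the same way. Its normalized values were 186, 131 and 92.2 at 0 d, 245, 228 and 252 at 3 d, 369, 412 and 340 at 6 d, followed by 341, 478 and 499 at 9 d. Every later library lay above every 0 d library. By edgeR the log2 fold changes were 0.93 (SE 0.26, adjusted p = 0.0408), 1.60 (SE 0.27, adjusted p = 0.000728) and 1.85 (SE 0.27, adjusted p = 0.000211). The 3 d call was lost with library totals (0.87), with only the libraries of 0 and 3 d (0.93) and when 0 d replicate 3 was left out (0.70, edgeR adjusted p = 0.0557), and also without 0 d replicate 2, any of the 3 d libraries, 6 d replicate 1 or 2, or 9 d replicate 2 or 3 (adjusted p from 0.00925 to 0.138 over all alternatives). Reads of the 5p arm outnumbered those of the 3p arm by 196 ± 76.0 at 0 d and 188 ± 29.3 at 9 d, and this ratio overlapped between 0 d and each later day. The like ratio of miR-125a lay above 0 d in every library at 3 and 9 d (1.55 and 1.53 times), and that of miR-99b lay below at 6 d and above at 9 d (0.829 and 1.42 times).

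For miR-100, the normalized values were 62961, 62189 and 56665 at 0 d and 84980, 83700 and 83751 at 3 d. They were 93363, 101443 and 116404 at 6 d and 144338, 189846 and 160613 at 9 d. The 4 days did not overlap, and each day lay above the day before. By edgeR the log2 fold changes were 0.60 (SE 0.15, adjusted p = 0.0195), 0.94 (SE 0.15, adjusted p = 0.000585) and 1.63 (SE 0.15, adjusted p = 3.18e-06), a 3.08-fold level at 9 d. They were 0.52, 0.87 and 1.51 without 0 d replicate 3, and all were called. The 6 d and 9 d calls were kept under every alternative, and the 3 d call was lost without any 1 of the 3 d libraries (0.59, 0.61 or 0.61) with library totals (0.55), with no filter (0.57), with only the libraries of 0 and 3 d (0.60) and with the deposited normalized values in limma (0.48), with adjusted p from 0.00282 to 0.0950 over the alternatives. The other strand of that hairpin, chi-miR-100-3p, had 6 raw counts in 0 d replicate 1 and 0 in the other 11 libraries, too few to be tested.

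**Figure D3:**
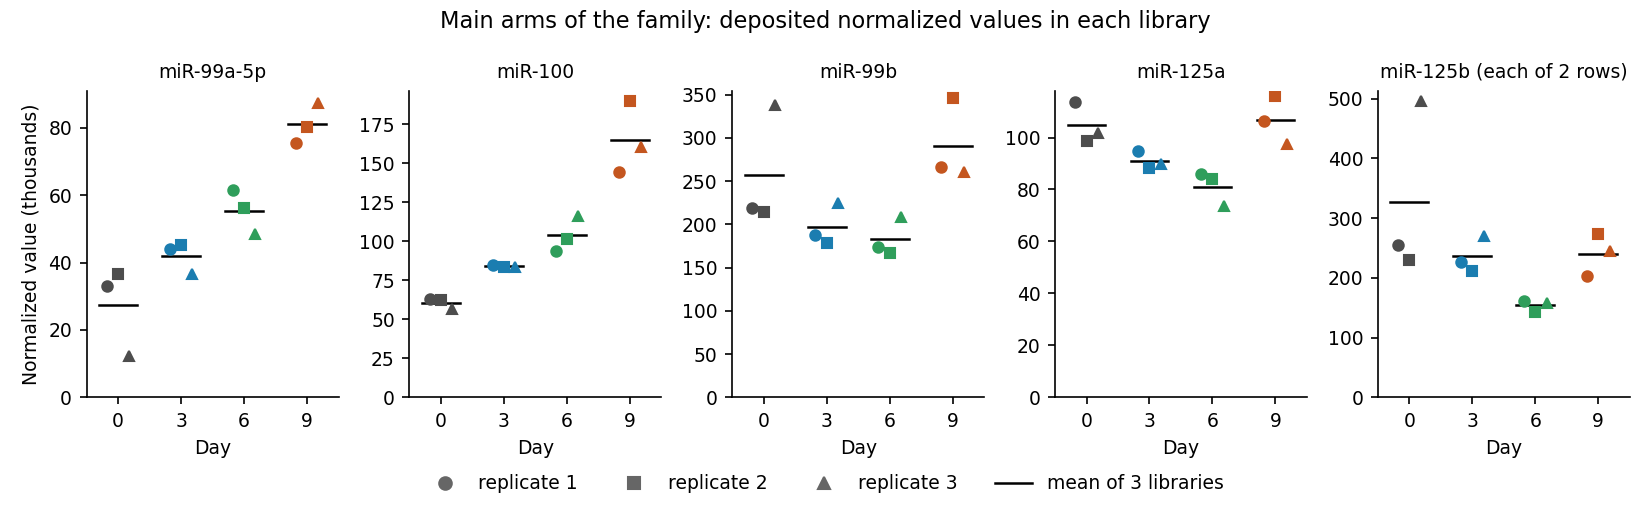
Deposited normalized values of the 5 main arms in each library against the day, with a line at the mean of the 3 libraries of a day. The libraries of miR-100 do not overlap between days, and 0 d replicate 3 is the lowest point of miR-99a-5p and the highest of miR-125b.

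The members of the chromosome 18 cluster, miR-99b and miR-125a, did not pass the test against 0 d on any day. For miR-99b, the normalized values were 219378, 214507 and 338550 at 0 d and 187450, 178743 and 224174 at 3 d. They were 173872, 167285 and 207900 at 6 d and 266754, 345860 and 260349 at 9 d. The highest 0 d value was again replicate 3, and 9 d overlapped 0 d. The log2 fold changes were -0.24, -0.31 and 0.38 (edgeR adjusted p = 0.444, 0.269 and 0.138), and without 0 d replicate 3 the 9 d value was 0.54 and was called (adjusted p = 0.0112, from 0.0112 to 1 over the alternatives), whereas with library totals it was 0.01. For miR-125a, the values were 113723, 98694 and 101763 at 0 d, 94833, 88421 and 89647 at 3 d, 85823, 83942 and 73477 at 6 d, followed by 106459, 115972 and 97636 at 9 d. All 3 d and 6 d libraries lay below those of 0 d in the normalized values, but they overlapped once scaled by TMM. Its log2 fold changes were -0.07, -0.20 and 0.21 (SE 0.15 each, edgeR adjusted p = 0.906, 0.390 and 0.323), and the 9 d value had the other sign with library totals (-0.17). At 6 d it was called lower by DESeq2 (-0.36, adjusted p = 0.0105) and by edgeR with a minimum sum of 120 (-0.40, adjusted p = 0.0228), with adjusted p from 0.0105 to 0.675 over the alternatives.

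The 3p arms of that cluster were low. The normalized values of miR-125a-3p were 309, 338 and 288 at 0 d, 158, 182 and 185 at 3 d, 221, 224 and 237 at 6 d, followed by 225, 213 and 185 at 9 d. All later libraries lay below those of 0 d in these values, and the log2 fold changes by edgeR were -0.70 (SE 0.20, adjusted p = 0.0408), -0.30 (adjusted p = 0.330) and -0.40 (adjusted p = 0.166), with only 3 d called in this fit. The 3 d call was lost with no filter (-0.74), with only the libraries of 0 and 3 d (-0.71), without 0 d replicate 1 or 2, any of the 3 d libraries, or 6 d replicate 1 or 2 (log2 fold change from -0.80 to -0.60 with a library left out), and with a replicate block (-0.70). The 6 d value was called by DESeq2 (-0.45, adjusted p = 0.0230) and by edgeR with a minimum sum of 120 (-0.49, adjusted p = 0.0278), with adjusted p from 0.0230 to 0.545 over the alternatives. The 9 d value was called by edgeR without 0 d replicate 3 (-0.52, adjusted p = 0.0406, from 0.00266 to 0.350 over the alternatives), with library totals (-0.79) and with a minimum sum of 120 (-0.59), and by DESeq2 and limma. For miR-99b-3p, the means were 1261, 791, 1089 and 1005 over the 4 days, and the log2 fold changes were -0.53, -0.03 and -0.12, with none called in this fit of edgeR (adjusted p = 0.0744, 0.937 and 0.687). All 3 d libraries lay below those of 0 d, and the 3 d value was called in 5 alternatives: by DESeq2 (-0.67), by edgeR with a minimum sum of 120 (-0.67) or without 0 d replicate 1 (-0.62), and by limma with either pseudocount (-0.66 and -0.65), with edgeR, DESeq2 and limma adjusted p from 0.00102 to 0.217 over all alternatives. The 9 d value was called with library totals (-0.49).

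The member with the most reads over its rows, miR-125b, was lower at 6 d. On each of its rows the normalized values were 255101, 229826 and 496228 at 0 d and 226656, 211973 and 270075 at 3 d. They were 161937, 143357 and 158493 at 6 d and 203685, 272840 and 244183 at 9 d. The 6 d libraries lay below those of all other days, and 0 d replicate 3 lay far above everything else, with 24.4% of its reads on miR-125b against 16.3% and 15.3% in the other 0 d libraries. By edgeR the log2 fold changes were -0.30 (SE 0.22, adjusted p = 0.426), -0.88 (SE 0.22, adjusted p = 0.0130) and -0.23 (SE 0.22, adjusted p = 0.492). Leaving out 0 d replicate 3 gave -0.51 at 6 d, still called (edgeR adjusted p = 0.0151), and the 3 d and 9 d values turned to 0.05 and 0.10 and were not, whereas with library totals the 9 d value was called (-0.59, adjusted p = 0.0421, up to 0.695 over the alternatives). The 6 d call was lost with only the libraries of 0 and 6 d (-0.90) and without 6 d replicate 2 (-0.83, edgeR adjusted p = 0.0638), and its adjusted p lay between 0.000607 and 0.102 over the alternatives.

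The 3p arms told the hairpins of miR-125b apart. The normalized values of miR-125b-1-3p, from the chromosome 15 cluster, were 1038, 1452 and 1493 at 0 d and 415, 406 and 412 at 3 d. They were 303, 335 and 419 at 6 d and 488, 488 and 516 at 9 d. The lowest 0 d library was more than 2 times the highest later library, and 0 d replicate 3 did not stand apart. By edgeR the log2 fold changes were -1.55 (SE 0.19, adjusted p = 0.000111), -1.74 (SE 0.19, adjusted p = 2.03e-05) and -1.22 (SE 0.19, adjusted p = 0.000368), and levels fell to 0.341, 0.299 and 0.429 of that at 0 d. The changes were -1.51, -1.69 and -1.21 without 0 d replicate 3. All 3 calls were kept under every alternative, where the log2 fold changes lay from -1.70 to -1.44 (3 d), from -1.95 to -1.63 (6 d) and from -1.60 to -1.10 (9 d).

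The normalized values of miR-125b-2-3p, from the chromosome 1 cluster, were 1552, 1571 and 801 at 0 d and 1148, 1200 and 831 at 3 d. They were 1440, 1722 and 1899 at 6 d and 1786, 1518 and 1372 at 9 d. These values overlapped between 0 d and every later day, though once scaled by TMM the 6 d libraries lay above those of 0 d, and the log2 fold changes of -0.19, 0.51 and 0.42 were not called (edgeR adjusted p = 0.768, 0.242 and 0.287). Within a library the ratio of the 2 arms needs no scaling between libraries: miR-125b-2-3p over miR-125b-1-3p was 1.49, 1.08 and 0.537 at 0 d, 2.77, 2.95 and 2.02 at 3 d, 4.75, 5.15 and 4.53 at 6 d, followed by 3.66, 3.11 and 2.66 at 9 d. Every later library lay above every 0 d library, with mean ratios of 1.04 ± 0.480 at 0 d and 4.81 ± 0.314 at 6 d (SD, n = 3). This pair was chosen after the courses of both arms were seen, so that no p is given for it. The fold changes of the ratio were 2.67, 5.03 and 3.27 at 3, 6 and 9 d, and 2.0, 3.78 and 2.45 when 0 d replicate 3 was left out.

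**Figure D4:**
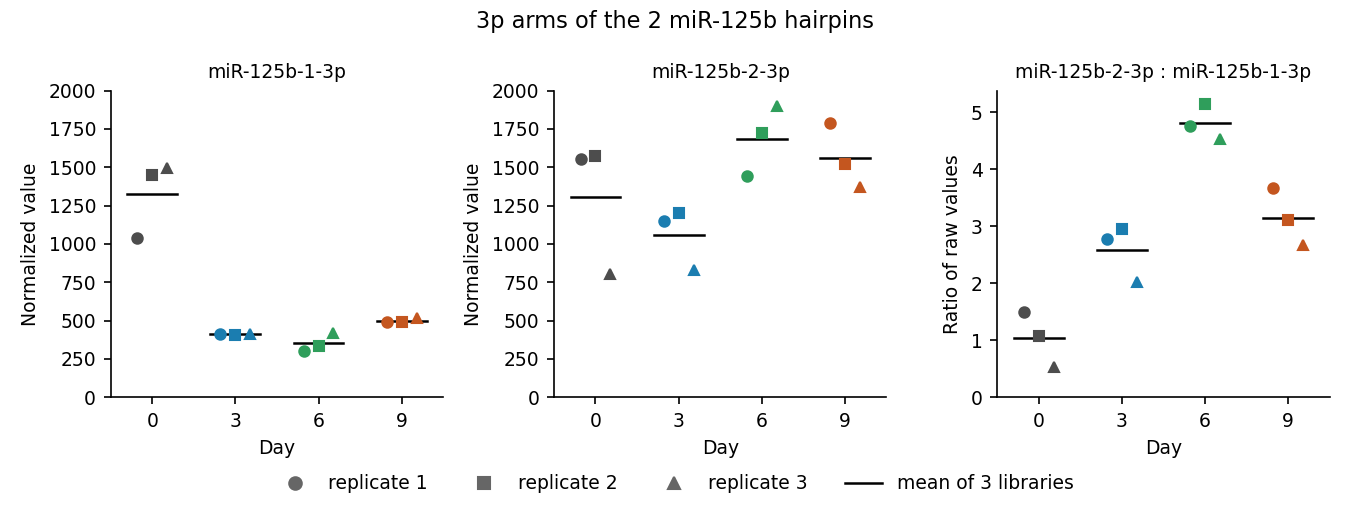
Normalized values of the 3p arms of the 2 miR-125b hairpins and the ratio of their raw values in each library, against the day, with a line at the mean of 3 libraries. Values of miR-125b-1-3p separate 0 d from the later days, those of miR-125b-2-3p overlap, and the ratio is highest at 6 d.

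The hairpins of miR-100 and miR-125b-1 are neighbours on chromosome 15, but miR-100 was higher and miR-125b-1-3p lower than at 0 d on each later day. The let-7a-5p miRNA, made from several hairpins of which 1 lies between them, had log2 fold changes of 0.41, 0.38 and 0.43 and was not called (edgeR adjusted p = 0.156, 0.133 and 0.0632). On chromosome 1, let-7c lies beside miR-99a, and its normalized values were 5152, 4231 and 4954 at 0 d, 5871, 5778 and 6272 at 3 d, 7206, 7105 and 8680 at 6 d, followed by 7424, 7643 and 8514 at 9 d. All later libraries were above 0 d, and by edgeR it was called higher at 6 d (0.85, adjusted p = 0.00177) and 9 d (0.91, adjusted p = 0.000781) but not at 3 d (0.46, adjusted p = 0.0926). Its 3p arm, chi-let-7c-3p, had log2 fold changes of -0.054, 0.999 and -0.503 against 0 d and was not called. From 6 d to 9 d that arm changed by -1.50, with libraries apart, and was not called either (edgeR adjusted p = 0.0695). On chromosome 18, let-7e had normalized values from 2829 to 11545 at 0 d, which overlapped all later days, and log2 fold changes of -0.08, 0.48 and 0.65 that were not called (edgeR adjusted p = 0.993, 0.393 and 0.215).

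Ratios of 5p arms within a library set members against each other without a scaling factor. The ratio of miR-100 to miR-125a was 0.554, 0.630 and 0.557 at 0 d, 0.896, 0.947 and 0.934 at 3 d, 1.09, 1.21 and 1.58 at 6 d, followed by 1.36, 1.64 and 1.65 at 9 d. It moved by 1.60, 2.21 and 2.66 times and barely changed when 0 d replicate 3 was left out (1.57, 2.16 and 2.61). That of miR-100 to miR-99b, of the same seed, had means of 0.248, 0.432, 0.568 and 0.569 over the 4 days, and that of miR-100 to miR-125b had means of 0.105, 0.18, 0.336 and 0.344. Without 0 d replicate 3 the 9 d folds of these 2 were 1.97 and 2.66 in place of 2.36 and 3.49. For the 3 ratios every later library was above every 0 d library. The ratio of miR-99a-5p to miR-125b had a mean of 0.0523 at 0 d and 0.170 at 9 d, with overlap at 3 d only, and without 0 d replicate 3 the 9 d fold was 2.36 in place of 4.25. The ratio of miR-99b to miR-125a, neighbours in the chromosome 18 cluster, overlapped between 0 d and every later day, with means of 2.48, 2.17, 2.28 and 2.72. Without 0 d replicate 3 its folds were 1.05, 1.1 and 1.32 in place of 0.895, 0.936 and 1.13, and the 9 d libraries lay above those of 0 d. These pairs were also chosen after the values were seen, so that no p is given for them.

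Neighbouring induced days were also compared. From 3 d to 6 d, 0 of 12 members were called by edgeR, against 5.83% of all names (3.79% higher, 2.04% lower). At an unadjusted p under 0.05 there were 5, and DESeq2 and limma also called 0. The 0 d replicate 3 is of neither day, but it enters the shared fit and the choice of names tested (1071 without it). When it was left out, 5 members were called: miR-99a-5p (0.45), miR-99a-3p (0.68), miR-99b-3p (0.51), miR-125b-2-3p (0.72) and miR-125b (-0.56). All of these but miR-99a-5p were also called when only the libraries of 3 and 6 d were fitted. From 6 d to 9 d, edgeR called 1 of 12, miR-100 (0.69, SE 0.15, adjusted p = 0.0436), against 1.57% of all names (0.74% higher, 0.833% lower). That call was lost when any library other than 0 d replicate 3 or 6 d replicate 3 was left out (log2 fold change from 0.57 to 0.76 with a library left out, adjusted p from 5.45e-05 to 0.261 over all alternatives). In some alternatives other members were called: miR-99b by DESeq2, with a replicate block, with only the libraries of 6 and 9 d and without 0 d replicate 3, miR-125b in the last 2 of these, miR-99a-5p in the last, and miR-125a by DESeq2. All 5 main arms had higher normalized values in every 9 d library than in any 6 d library. Their log2 fold changes were 0.57, 0.69, 0.69, 0.42 and 0.65 for miR-99a-5p, miR-99b, miR-100, miR-125a and miR-125b. How many of all names were apart in this way was not counted. The deposited scaling raises such values, as the lowest normalized total of a 9 d library (3578468) exceeded the highest of a 6 d library (3141670). In shares of raw values miR-125a overlapped, with 2.673% in 9 d replicate 3 below 2.733% in 6 d replicate 2. The other main arms stayed apart. The fold changes also depend on the scaling. With library totals the median over all names fell by 0.37 rather than 0.10, and the family median was 0.05 rather than 0.33.

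The remaining names were near the floor. The 2 sha- names had identical values in every library, with 410 raw counts each over the 12 libraries and from 0 to 64 in a library. Their mean normalized values were 15.4, 40.7, 32.6 and 34.5 over the 4 days, and neither was called on any day (edgeR log2 fold change 1.58, SE 0.74, adjusted p = 0.236 at 3 d). As their values are the same, they count as 2 of the 12 tested names without being separate measurements.

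For each main arm, the 3 names outside the family with the most similar course were taken by Pearson r of log2(normalized value + 1) over the 12 libraries, among 647 names. The r values are descriptions, since all points share their libraries and 0 d replicate 3. For miR-99a-5p they were miR-26a (0.992), miR-199a-5p (0.977) and miR-494 (0.974). The mean normalized values of miR-26a were 15301, 22592, 26905 and 35455 over the 4 days, with 7773 in 0 d replicate 3, the lowest library there too. For miR-100 they were miR-381 (0.956), miR-181a-3p (0.955) and miR-10a (0.951), whose means went from 1435 to 3423, from 124 to 806 and from 1926 to 6552 between 0 d and 9 d. For miR-125b they were miR-184 (0.892), miR-532-3p (0.889) and miR-197 (0.872), all highest in 0 d replicate 3. The best matches were weaker for miR-99b, with miR-1468 at 0.761 and the 3p arm of its neighbour let-7e at 0.742, and for miR-125a, where r was at most 0.663.

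Among mRNAs, lists of host transcripts, miRNA machinery and known targets of both seeds were read from the FPKM table with limma on log2(FPKM + 0.1), over 15402 rows and with calls at an adjusted p under 0.05 and an absolute log2 fold change over 1. Of all rows, 23.3% were called at 3 d (8.06% higher, 15.2% lower), 11.4% at 6 d (3.39% higher, 7.97% lower) and 10.9% at 9 d (3.41% higher, 7.47% lower). None of the 4 host transcripts was found by name. Rows named for the hairpins, chosen after the table was seen, included the row that MIR125B-1 shares with LOC100848689, at 44.8, 46.0 and 224 FPKM at 0 d and 250, 323 and 297 at 9 d (log2 fold change 1.90, SE 0.67, limma adjusted p = 0.0487, with no alternative tried). The 9 d libraries lay above those of 0 d, of which replicate 3 was far from the others. The row that MIR100 shares with LOC107131357 lay between 61.2 and 115 FPKM in the 12 libraries and was not called. Its 6 d and 9 d libraries lay below those of 0 d, with log2 fold changes within the fold limit (-0.445 and -0.263, limma adjusted p = 0.0228 and 0.143). The row joining MIR125B-2 and MIR99A lay between 1.01 and 6.28 FPKM. Rows of MIR99B, MIRLET7E and MIRLET7C stayed at or under 0.09 FPKM. These rows count long RNA that overlaps a hairpin and not the mature miRNA.

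Of 18 genes of miRNA machinery, 16 were tested. At 3 d, 0 were called by limma (0 also at an unadjusted p under 0.05 with a log2 fold change over 1, and 6 at an adjusted p under 0.05 of any size), and at 6 d and 9 d the same 2 were lower. Of all rows, 23.3% were called at 3 d, 11.4% at 6 d (7.97% lower) and 10.9% at 9 d (7.47% lower). PRKRA, a partner of Dicer, had 7.34, 5.68 and 6.31 FPKM at 0 d, 2.28, 2.13 and 3.05 at 6 d, followed by 3.24, 2.91 and 3.03 at 9 d. TNRC6C, a scaffold of Argonaute silencing complexes, had 6.23, 4.93 and 5.14 FPKM at 0 d, 2.30, 2.02 and 1.87 at 6 d, followed by 1.97, 1.31 and 1.53 at 9 d. Libraries of 6 and 9 d lay below those of 0 d for both, with log2 fold changes of -1.35 and -1.04 for PRKRA (limma adjusted p = 4.18e-05 and 0.000262) and -1.35 and -1.71 for TNRC6C (6.86e-05 and 1.60e-05). The 9 d change of PRKRA was under the fold limit without 0 d replicate 1 (-0.95), with rescaled FPKM (-0.84) and with a pseudocount of 1 (-0.87). The median of the list was 0.03, -0.32 and -0.39, beside -0.06, -0.15 and -0.19 over all rows. LIN28A and LIN28B, which block let-7 maturation and are known targets of miR-125, were at 0 in every library.

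Known targets of the miR-99 and miR-100 seed numbered 16, of which 15 were tested. At 3 d, 2 were called, both lower, at 6 d 1, lower, and at 9 d 0 by limma (1 at an unadjusted p under 0.05 with a log2 fold change over 1). Of all rows, 23.3% were called at 3 d (15.2% lower), 11.4% at 6 d (7.97% lower) and 10.9% at 9 d. CTDSPL, a phosphatase that acts on the retinoblastoma protein, had 11.4, 9.46 and 9.78 FPKM at 0 d and 1.30, 5.31 and 1.28 at 3 d (log2 fold change -2.23, SE 0.44, limma adjusted p = 0.00158). BMPR2, a receptor of bone morphogenetic proteins, had 142, 135 and 120 FPKM at 0 d and 74.1, 21.2 and 71.2 at 3 d (-1.45, SE 0.39, limma adjusted p = 0.00949), and without 3 d replicate 2 its change was -0.86, under the fold limit. Its call was also lost when only the libraries of 0 and 3 d were fitted (limma adjusted p = 0.0583, from 3.46e-05 to 0.0583 over the alternatives). In both genes 3 d replicate 2 differed from the other 3 d libraries, upwards in CTDSPL and downwards in BMPR2, but no library overlapped with 0 d. FGFR3, a fibroblast growth factor receptor, had 0.87, 0.91 and 0.77 FPKM at 0 d and 0.20, 0.33 and 0.33 at 6 d (-1.31, SE 0.21, limma adjusted p = 0.000831), and with a pseudocount of 1 the change was within the fold limit. MTOR, given here although it was not called, had means of 28.1, 27.7, 28.4 and 18.7 FPKM over the 4 days, and its 9 d change of -0.59 (limma adjusted p = 0.000247) was within the fold limit. The 9 d changes of the other targets tested ran from -1.163 to 0.275. The list's median was -0.13, -0.09 and -0.32, beside -0.06, -0.15 and -0.19 over all rows.

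Of 25 known targets of the miR-125 seed, 22 were tested, and 6 were called at 3 d, 4 higher and 2 lower. Of all mRNA rows tested, 23.3% were called at 3 d, 8.06% higher and 15.2% lower. TNFAIP3, which restrains NF-kB signalling, had 4.59, 4.52 and 3.49 FPKM at 0 d, 32.4, 39.0 and 32.4 at 3 d, and between 4.96 and 7.19 on the later days (3.02 at 3 d, SE 0.14, limma adjusted p = 4.24e-08). MAP3K11, a kinase upstream of JNK, had 9.83, 9.02 and 9.51 FPKM at 0 d and 21.2, 22.6 and 22.9 at 3 d (1.23, SE 0.07, limma adjusted p = 1.54e-07). Neither was called at 6 d or 9 d. PRDM1, a transcriptional repressor, was low throughout (0.12, 0.15 and 0.16 FPKM at 0 d, 0.51, 0.48 and 0.42 at 3 d, limma adjusted p = 3.95e-05) and within the fold limit with a pseudocount of 1 (0.36). The row of BCL2L2, an inhibitor of cell death, is joint with PABPN1 and rose from 60.5, 32.1 and 38.6 FPKM to 100.02, 87.5 and 94.7 at 3 d (1.15, SE 0.37, limma adjusted p = 0.0250), a call lost without 0 d replicate 2 or 3 or 3 d replicate 1 or 3 (adjusted p from 0.00192 to 0.0860 over the alternatives). The reads of the 2 genes of that row cannot be told apart.

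The same 2 targets were lower on every later day. ERBB3, a receptor tyrosine kinase, had 7.94, 7.95 and 8.53 FPKM at 0 d, 2.30, 2.55 and 2.53 at 3 d, 1.68, 1.48 and 1.43 at 6 d, followed by 1.67, 1.38 and 1.68 at 9 d. BMF, which promotes cell death, had 38.2, 40.6 and 37.0 FPKM at 0 d, 14.4, 15.4 and 8.35 at 3 d, 10.3, 8.37 and 7.57 at 6 d, followed by 12.1, 11.9 and 10.6 at 9 d. No later library reached the 0 d range in either gene, and the log2 fold changes were -1.69, -2.34 and -2.30 for ERBB3 and -1.65, -2.14 and -1.74 for BMF (limma adjusted p at most 0.000128). They were the 2 of 22 called at 6 d and at 9 d, against 11.4% and 10.9% of all rows. The list's median was 0.12, -0.23 and -0.09, beside -0.06, -0.15 and -0.19 over all rows. The lists were taken from what is known in other mammals, sites in the bovine transcripts were not searched, and a link between a miRNA and a listed mRNA was not tested.

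**Figure D5:**
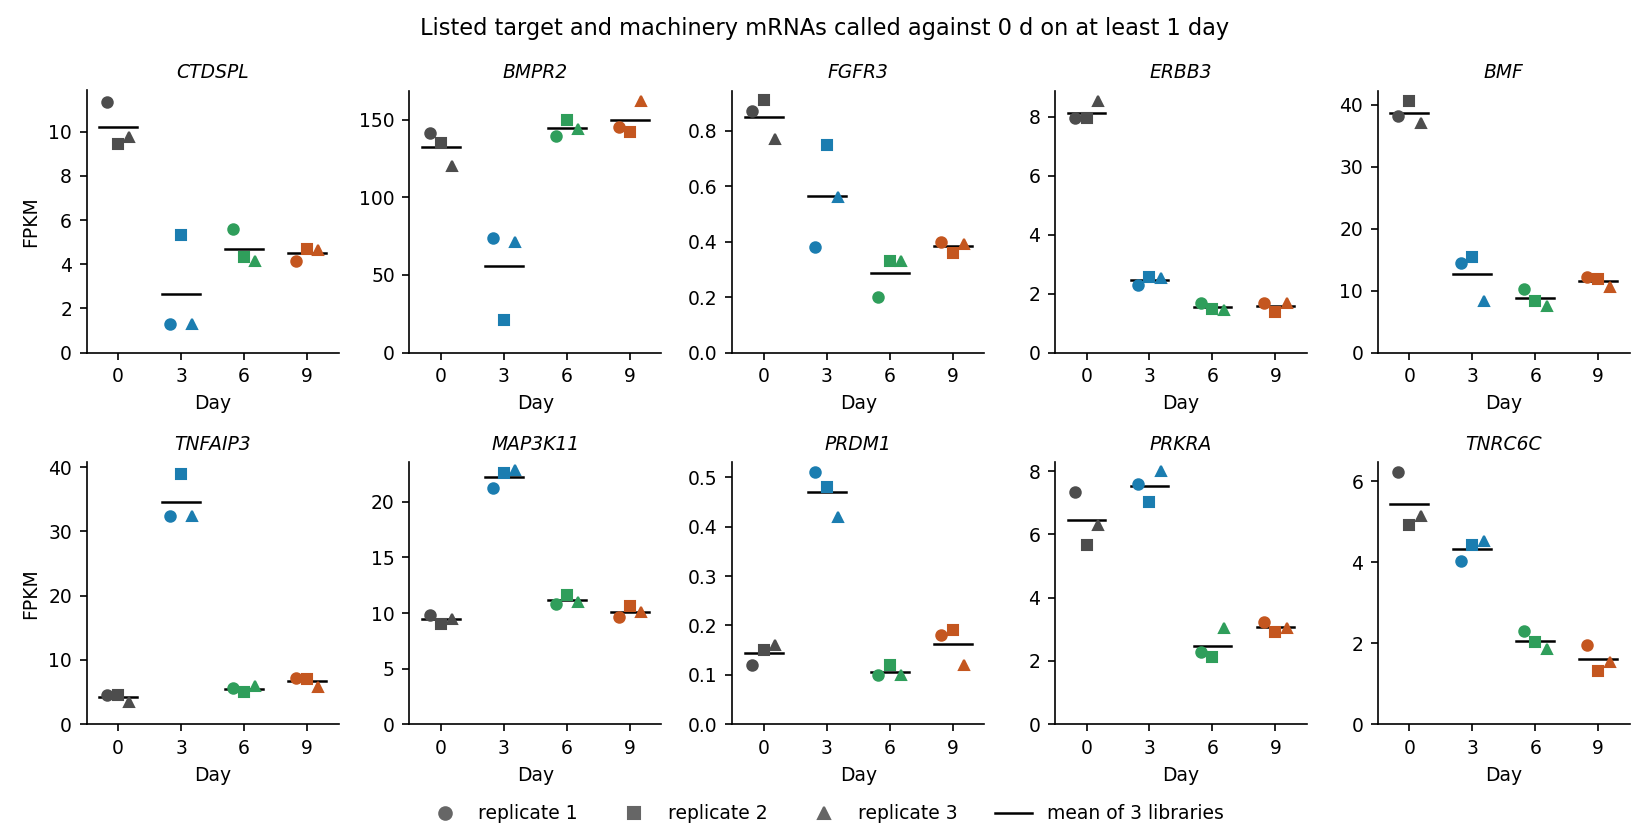
FPKM of 10 listed target and machinery mRNAs that were called against 0 d on at least 1 day, in each library against the day, with a line at the mean of 3 libraries. ERBB3 and BMF stay below their 0 d values on all later days, TNFAIP3, MAP3K11 and PRDM1 are high at 3 d, and PRKRA and TNRC6C are lower at 6 and 9 d.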

How the data were processed

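Small RNA and long RNA of bovine intramuscular preadipocytes were measured on 4 days of differentiation in 12 libraries, whose groups were taken from the days in the titles of the samples. The raw miRNA values deposited by the authors are estimated counts, with the reads of a miRNA divided between its hairpins. Beside them the authors deposited a normalized signal, found here to be each raw value multiplied by a factor common to its library, and the labels do not state how it was chosen. The paper names TMM for its data, and the deposited factors lay at 0.859 to 1.114 times scale factors from TMM here, set to the mean effective library size. For mRNAs the authors assembled and quantified transcripts, and the deposited values are FPKM, from which neither counts nor depth can be recovered. The submitters' notes name Bowtie 0.12.2, HISAT2 2.0, StringTie 1.3.0 and a mouse genome build, whereas the coordinates of the table were read as bovine, after the paper. A RefSeq gene table was used only to pair hairpins with gene symbols.

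Rounded raw values of the 1081 names with a sum of at least 10 went into quasi-likelihood tests of edgeR 4.0.16 (TMM factors, estimateDisp, glmQLFit and glmQLFTest), fitted to the 12 libraries together with days as groups. Each later day was compared with 0 d, and neighbouring later days with each other, all two-sided. Listed mRNAs were tested among 15402 of 33714 rows with a mean FPKM of at least 0.1 by limma 3.58.1 with a trend on log2(FPKM + 0.1). Adjusted p are Benjamini-Hochberg values over all names or rows tested. Ratios of raw values were also tested by exact two-sided permutation of 3 against 3 libraries, whose smallest p is 0.1, and those p are not reported because the pairs were chosen after the values were seen. Shares carry Wilson 95% intervals. The 12-library courses were compared among names with a raw sum of at least 120. R 4.3.3, Python 3.11.15, NumPy 2.4.6, pandas 2.3.3, SciPy 1.17.1 and Matplotlib 3.10.9 were used, and the code was tested on simulated data.

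All 13 family names were followed. Other names were those of the let-7 neighbours, the 3 most similar miRNAs of each main arm, and each listed mRNA that was called. Lists covered host transcripts, miRNA machinery, known targets of both seeds, and markers of adipocytes, preadipocytes and fibroblasts, skeletal muscle, endothelium, blood and immune cells and proliferation, with miRNA markers of muscle, blood, endothelium, epithelium and liver. Members and lists were chosen with earlier results of these data known.

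Alternatives were DESeq2 1.42.0, library totals, no filter or a minimum sum of 120, limma on the normalized signal with a pseudocount of 1 or 10, fits of the 6 libraries of a comparison alone, replicate numbers as blocks, other pseudocounts and filters for FPKM, FPKM rescaled by their median ratio, shares among bovine names only, and omission of each of the libraries. Summing the rows of a name, and shares with 1 row per name, were chosen after seeing the data. In the miRNA and mRNA tables no column of values per sample was left unused, the lncRNA and circRNA tables were not used, and reads were not mapped again.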

Additional observations from a re-analysis of the deposited data

How the results depend on the processing

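Calls of miR-125b-1-3p on each day against 0 d, of miR-100 and miR-99a-3p at 6 and 9 d, and of miR-99a-5p at 9 d were kept under all 21 alternatives. No called log2 fold change of a member changed its sign. The call of miR-100 from 6 d to 9 d was lost in 15. At 3 d that of miR-99a-3p was lost in 11, that of miR-125a-3p in 10 and that of miR-100 in 8, and at 6 d that of miR-99a-5p was lost in 4 and that of miR-125b in 2.

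The number of members called at 3 d against 0 d was 4, and it was 2 with library totals, 2 with no filter, 1 with only the 6 libraries compared, 5 by DESeq2 and with a minimum sum of 120, and 1 to 4 with a library left out. At 6 d it was 5, with 3 in the 6 libraries alone, 4 with library totals, 7 by DESeq2 and with a minimum sum of 120, and 3 to 5 with a library left out. At 9 d it was 4, with 7 under library totals, 5 by DESeq2, by limma and with a minimum sum of 120, and 4 to 6 with a library left out. From 3 d to 6 d it was 0 by edgeR, DESeq2 and limma (5 at an unadjusted p under 0.05), with 4 in the 6 libraries alone and 0 to 5 with a library left out. From 6 d to 9 d it was 1, with 3 by DESeq2, 3 in the 6 libraries alone, 0 with library totals, 0 with no filter, 0 by limma with either pseudocount, 0 with the rows of a name summed and 0 to 4 with a library left out (5 at an unadjusted p under 0.05). The cause of these shifts was not tested.

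With a block for the replicate number, 3, 5, 4, 0 and 2 members were called in these 5 comparisons. After the mean of each day was removed, the mean r was 0.029 (from -0.112 to 0.312) between libraries of the same number and -0.013 between others, although the 3 same-number pairs of 0 d and 6 d had r of 0.139, 0.106 and 0.312. Between these days, 0 d replicate 1 with 6 d replicate 2 had 0.151, and 0 d replicate 2 with 6 d replicate 1 had 0.128. The remaining pairs of unlike number lay from -0.233 to -0.189. Whether numbers pair the libraries across days cannot be told from this.

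The settings moved the balance of all called names. At 9 d, 57.7% of calls were higher, against 34.8% with library totals, and from 6 d to 9 d 47.1% against 6.06%. At 6 d, 65.5% of calls were higher, against 53.8% with library totals and 52.0% by DESeq2, and at 3 d 61.6% against 50.0% by DESeq2, which changes the model as well as the scaling. With a minimum sum of 120 in edgeR the percentages were 53.2, 51.1 and 47.8 over the later days. A change of a member near 0 can take either sign with the scaling, as that of miR-125a at 9 d did with library totals.

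The family's share of raw values at 0 d was 32.1%, with 36.3% among bovine names and 28.5% with 1 row per name. At 3 d it was 28.2%, with 30.4% and 25.8%, at 6 d 23.7%, with 25.5% and 22.7%, and at 9 d 30.1%, with 31.9% and 28.8%. With 1 row per name the 9 d share was thus not below that of 0 d. With a library left out the mean shares were 29.6% to 33.6%, 27.3% to 28.9%, 23.2% to 24.1% and 29.1% to 31.1% over the 4 days. Listed mRNAs called numbered 8, 5 and 4, with 7 to 9, 5 to 6 and 3 to 5 when a library was left out, 11, 7 and 5 with a pseudocount of 0.01, 7, 4 and 4 with 1, 7, 6 and 6 in the 6 libraries alone, and 9, 6 and 3 with rescaled FPKM. Counts of chi-miR-100-3p and the 2 sha- names were low, and whether depth limited them was not tested.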
